A study of Mus musculus with 6 samples.

Results

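Sites of phosphorylated Smad1/5 (pSmad1/5) were compared between molar tooth germ and limb of E13.5 mouse embryos of the CD1 stock, all wild type. Chromatin was precipitated with an antibody to pSmad1/5 and sequenced, with 1 library per tissue, and the authors deposited 1 list of called peaks for each. The molar list held 35476 peaks and the limb list 23389, together 58865 of the 123182 peaks in the 4 lists of the series. The other lists come from an antibody to Smad4 in the same tissues, and 2 input samples have no peak list. No group carries a transgene or a treatment, per the labels. The sources used here do not say whether embryos were pooled. A molar peak was called overlapping when it shared at least 1 bp with a limb peak, and the same rule was applied to limb peaks. By this rule 395 molar peaks and 398 limb peaks overlapped, in 402 pairs, and 35081 molar and 22991 limb peaks were restricted to their tissue.

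Bone morphogenetic proteins (BMPs) are secreted ligands that bind paired receptor kinases. The receptors phosphorylate Smad1, Smad5 and Smad9, which join Smad4 and bind DNA at GC-rich elements or at Smad boxes. In the tooth germ, BMP signals pass between epithelium and mesenchyme before and during the bud stage and act with Fgf, Wnt and hedgehog signals. In the limb bud, BMPs act in digit patterning, in regression of the apical ridge and in cartilage condensation. With 1 library per tissue no difference between molar and limb has a replicate check and no p-value was computed. Intervals below are exact 95% binomial intervals over peaks or promoters, which cover counting error only. The lists hold no read counts, so sequencing depth is unknown, and they do not measure expression, so the tissue labels could not be set against marker genes.

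Sequence was available for annotated promoters, and 7 are shown because they carry a summit in both tissues or in a single tissue at a gene named below. Each is the 250 bases before a RefSeq transcription start on GRCm38.p6, written 5′ to 3′ along the gene's strand. Capitals in the first 3 mark bases covered by a molar and by a limb peak. In Msx1 and Smurf1 they mark the molar peak, and in Foxi3 and Fgf5 the limb peak.
Ptch1, chr13:63565736-63565985, minus strand: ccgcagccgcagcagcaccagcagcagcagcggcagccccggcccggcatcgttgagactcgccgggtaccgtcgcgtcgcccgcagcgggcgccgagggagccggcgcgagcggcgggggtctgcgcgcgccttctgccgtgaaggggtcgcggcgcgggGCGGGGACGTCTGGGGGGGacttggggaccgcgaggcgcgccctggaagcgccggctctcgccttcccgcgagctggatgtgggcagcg
Nfatc2, chr2:168601658-168601907, minus strand: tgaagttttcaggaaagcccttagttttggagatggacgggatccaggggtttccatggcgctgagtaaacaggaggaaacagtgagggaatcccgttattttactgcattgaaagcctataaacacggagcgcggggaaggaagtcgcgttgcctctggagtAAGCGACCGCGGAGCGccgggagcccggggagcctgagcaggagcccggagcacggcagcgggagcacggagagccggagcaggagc
Get1, chr16:96145150-96145399, plus strand: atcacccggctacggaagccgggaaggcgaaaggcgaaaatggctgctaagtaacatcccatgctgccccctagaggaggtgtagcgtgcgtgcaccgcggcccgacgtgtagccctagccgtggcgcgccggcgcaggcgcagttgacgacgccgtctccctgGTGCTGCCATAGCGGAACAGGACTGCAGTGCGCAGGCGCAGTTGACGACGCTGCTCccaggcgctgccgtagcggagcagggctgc
Msx1, chr5:37824586-37824835, minus strand: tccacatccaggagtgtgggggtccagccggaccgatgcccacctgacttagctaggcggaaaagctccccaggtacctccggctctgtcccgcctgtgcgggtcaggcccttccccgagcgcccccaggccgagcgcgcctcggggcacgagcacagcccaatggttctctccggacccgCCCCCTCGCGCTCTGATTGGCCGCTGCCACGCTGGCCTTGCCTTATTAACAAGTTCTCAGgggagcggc
Smurf1, chr5:144965831-144966080, minus strand: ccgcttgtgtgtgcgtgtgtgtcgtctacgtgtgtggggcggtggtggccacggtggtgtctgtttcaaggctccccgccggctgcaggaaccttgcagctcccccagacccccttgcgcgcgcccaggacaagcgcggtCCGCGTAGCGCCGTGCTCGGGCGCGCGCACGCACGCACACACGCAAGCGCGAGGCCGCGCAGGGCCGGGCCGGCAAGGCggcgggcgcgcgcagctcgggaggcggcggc
Foxi3, chr6:70956356-70956605, plus strand: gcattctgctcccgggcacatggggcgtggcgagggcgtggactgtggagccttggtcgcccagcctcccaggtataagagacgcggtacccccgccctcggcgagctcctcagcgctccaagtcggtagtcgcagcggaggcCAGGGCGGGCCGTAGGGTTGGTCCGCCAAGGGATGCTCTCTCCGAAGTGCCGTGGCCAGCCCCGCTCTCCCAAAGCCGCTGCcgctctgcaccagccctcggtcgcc
Fgf5, chr5:98253934-98254183, plus strand: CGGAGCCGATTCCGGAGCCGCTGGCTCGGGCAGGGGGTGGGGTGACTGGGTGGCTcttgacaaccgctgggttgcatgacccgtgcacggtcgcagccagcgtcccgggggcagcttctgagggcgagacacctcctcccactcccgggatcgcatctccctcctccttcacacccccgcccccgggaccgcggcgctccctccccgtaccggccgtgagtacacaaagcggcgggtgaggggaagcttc

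Ptch1 encodes the hedgehog receptor. Its printed start is an alternative one inside the gene, with the molar summit 17 bp and the limb summit 109 bp before it, and that molar summit lay 7708 bp from the annotated gene end. The 19 bases covered in both tissues hold a match to CAGAC, the single Smad box, read on either strand (GTCTG on the other). Nfatc2 encodes a calcium-regulated transcription factor, and its molar and limb summits lay 108 and 61 bp before the start. Get1 encodes a membrane insertase subunit, and there the covered stretch was 56 bases long, with summits 9 bp apart. Msx1, a homeobox gene needed for tooth development past the bud, had a molar summit 59 bp before its start and no limb summit in its promoter. Smurf1, a ubiquitin ligase that targets BMP Smads, had a molar summit 81 bp before its start. Foxi3, a forkhead gene of ectodermal appendages, had a limb summit at 64 bp and Fgf5, a secreted growth factor, at 213 bp. The Fgf5 peak covered 2 matches to GGAGCC, a GC-rich BMP-Smad element.

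Overlap between the tissues was sparse. The 395 molar peaks were 1.11% of the molar list (1.01 to 1.23%) and the 398 limb peaks 1.70% of the limb list (1.54 to 1.88%). Single autosomes spread more widely than these intervals. Molar shares ran from 0.285% (chromosome 1) to 2.22% (chromosome 10) and limb shares from 0.445% (chromosome 4) to 5.31% (chromosome 3). Within the 402 pairs the summits were a median of 41 bp apart (1 to 303 bp) and the shared stretch had a median of 41.5 bp, distances that the 1 bp rule and the narrow peaks limit. The pairs were nearest to 379 different protein-coding genes, and 20 genes were nearest to 2 or more pairs. Beyond strict overlap, a limb summit lay within 1 kb of 7.16% of molar summits, within 10 kb of 28.8% and within 50 kb of 62.5%. A molar summit lay within the same distances of 10.4%, 41.0% and 80.7% of limb summits.

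Overlap was most frequent in the highest class of the score that the peak caller gave each peak. This score is an enrichment value of the authors' that is used here to rank and filter peaks. Peaks were split by score into 4 equal classes on each chromosome. In the highest class 1.46% of molar peaks overlapped limb (1.23 to 1.74%), against 0.846% in the lowest class (0.666 to 1.06%). For limb these shares were 2.32% (1.95 to 2.74%) and 1.44% (1.15 to 1.78%). The classes between, from low to high, stood at 0.857% and 1.29% in molar and at 1.45% and 1.59% in limb. Scores of paired peaks had a Spearman correlation of 0.128 over the 402 pairs, which come from the same 2 libraries. The lowest listed molar score was under 3 on 7 of the 19 autosomes, on X and on Y, and 3 on the other 12 autosomes, while the lowest limb score was 3 on all 19. Y is counted with the lower limit and held 17 molar and 42 limb peaks, with 0 overlapping. On chromosomes with the lower molar limit 2.67% of limb peaks overlapped molar (2.33 to 3.05%), against 1.20% on the others (1.03 to 1.38%). Molar shares ran the other way, at 0.931% (0.81 to 1.06%) and 1.44% (1.24 to 1.66%). On the chromosomes with a limit of 3 or more the score correlation was 0.0311 over 184 pairs. The molar list reached lower scores on the 7 autosomes, X and Y than on the other 12 autosomes.

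**Figure D1:**
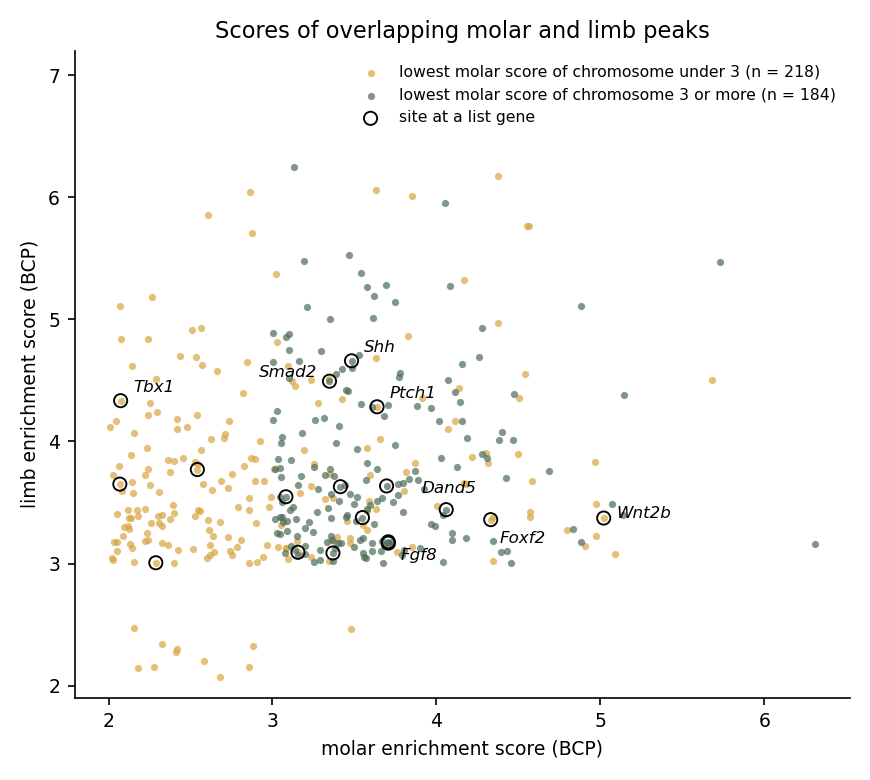
Molar score (x axis) against limb score (y axis), both BCP enrichment scores without unit, for the 402 pairs of overlapping peaks, coloured by the lowest molar score listed on their chromosome. Circles mark pairs within 10 kb of a gene of the lists, 8 genes are named, and 29 pairs have both scores at 4 or more.

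Of the 402 pairs, 29 had a score of at least 4 in both tissues, and the 15 with the highest lower score are described here. In 13 of these the molar summit lay within 1 kb of an annotated gene end, and in 10 within 1 kb of an annotated start. The first lay 675 bp from Mir124a-3, a hairpin of the neuronal microRNA miR-124, on chromosome 2 at 180893329 to 180893378 in molar (score 5.73) and 180893322 to 180893370 in limb (score 5.47). The nearest protein-coding gene, Ythdf1, a reader of methylated RNA, was 11012 bp away. The second lay outside genes, 12371 bp from Cdkn1c, which encodes a cyclin-dependent kinase inhibitor, with scores of 4.88 in molar and 5.11 in limb. Both sites had nearly equal scores in the 2 tissues, and the ranking by the lower score favours such pairs.

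Most of the next pairs lay within 1 kb of an annotated gene end. At Rab33b, a small GTPase of the Golgi, the pair lay 164 bp from a start, with scores of 4.56 in molar and 5.77 in limb. At Mast4, a microtubule-associated kinase, it lay 28 bp from a start, with scores of 4.55 and 5.76. Both of these also overlapped a limb Smad4 peak. Rpl32, which encodes a ribosomal protein, held 2 pairs, since a single molar peak of 314 bp (score 4.38) met limb peaks with scores of 4.97 and 6.17. At Nfatc2 the scores were 4.28 in molar and 4.93 in limb, and at Get1 they were 4.17 and 5.33. The remaining pairs lay in or beside Slc9a3 (a sodium and proton exchanger), Fcho2 (an endocytic adaptor), Gpank1, Nsun7, Pdzrn3, Noa1 and Pnpla5, with molar scores of 4.16 to 5.68 and limb scores of 4.17 to 4.69. No gene of a BMP, tooth or limb list was nearest to any of the 15.

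Gene lists for the pathway and for tissue regulators held 399 genes, and 16 of them (4.01%) had an overlapping site inside them or within 10 kb. Over all 21887 protein-coding genes 514 did, or 2.35%. These sites lay at several signalling genes shared by tooth and limb. Shh, the hedgehog ligand of the dental epithelium and of the limb's polarizing region, held 2 sites inside the gene. The first joined a molar peak at chromosome 5, 28458085 to 28458235 (score 3.48) to a limb peak at 28458052 to 28458097 (score 4.66), 1368 bp from the lower-coordinate gene end, and it also overlapped a limb Smad4 peak. The second lay 3847 bp from that end, with scores of 3.37 in molar and 3.09 in limb. Fgf8, a growth factor of oral epithelium and apical ridge, had a molar peak at chromosome 19, 45742733 to 45742850 (score 3.71). It met 2 limb peaks (scores 3.18 and 3.17), with the molar summit inside the gene and 167 bp from its higher-coordinate end. The tables used here give no strand for Shh or Fgf8.

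Hedgehog genes had 3 of 16 members with an overlapping site, the highest share of the 19 lists. Besides Shh these were Ptch1 (scores 3.64 in molar and 4.28 in limb) and Gas1, a hedgehog co-receptor (3.16 and 3.09, with the summits inside the gene and 1339 bp from its start). The hedgehog list is short, and its median gene length was 45501.5 bp, against 17169 bp over all protein-coding genes. Among Fgf genes the others were Fgfr1, a receptor (3.70 and 3.64, 3480 bp outside the gene), and Fgf11 (3.55 and 3.38, 1034 bp from its start). The nearest annotated start to the Fgf11 molar summit lay 309 bp away. Wnt2b, a Wnt ligand, had the highest molar score of these sites, 5.02, with 3.37 in limb, 6437 bp from its start. The sites at Fgf11 and Wnt2b also overlapped limb Smad4.

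Regulators with an overlapping site included Foxf2, a forkhead gene of facial mesenchyme (scores 4.33 in molar and 3.36 in limb), and Tbx1, a T-box gene of dental epithelium (2.07 and 4.33). In the TGF-beta and nodal branch they were Smad2, the effector of that branch (3.35 and 4.49, inside the gene, 332 bp from an end), and Lefty2, a nodal inhibitor (2.07 and 3.65). The single BMP modulator was Dand5, a secreted antagonist (4.06 and 3.44, 105 bp outside the gene, on its upstream side). The nearest start in the RefSeq promoter table lay 9547 bp from the Dand5 molar summit. Col11a2, a cartilage collagen (3.41 and 3.63), and Cdh5, an endothelial cadherin (3.08 and 3.55), were also among the 16. The Col11a2 site lay 7038 bp outside the gene, with its molar summit 69 bp from an annotated start. The Cdh5 molar summit lay inside the gene, 4408 bp from an end and 148 bp from an annotated start. No BMP ligand, BMP receptor, Smad of the BMP branch, BMP-Smad target or Hox gene of the lists had an overlapping site. With 2.35% over all genes, counts of 0 in lists of this size are near the background. Tbx1 and Lefty2 lie on chromosomes with the lower molar limit, and their molar scores are under 3.

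Overlapping peaks lay near gene ends far more often than restricted peaks, and the shift was towards starts. A summit lay within 1 kb of an annotated gene end in 51.6% of overlapping molar peaks (46.6 to 56.7%) and 18.1% of molar-restricted peaks (17.7 to 18.5%). For limb the shares were 51.3% (46.2 to 56.3%) and 19.1% (18.6 to 19.6%). Peaks outside genes made up 10.4% of overlapping and 33.3% of restricted molar peaks, and 10.8% and 26.7% in limb. The rest, inside genes and away from their ends, were 38.0% against 48.6% in molar and 37.9% against 54.2% in limb. The intervals of overlapping and restricted peaks were apart in all 3 classes in both tissues.

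**Figure D2:**
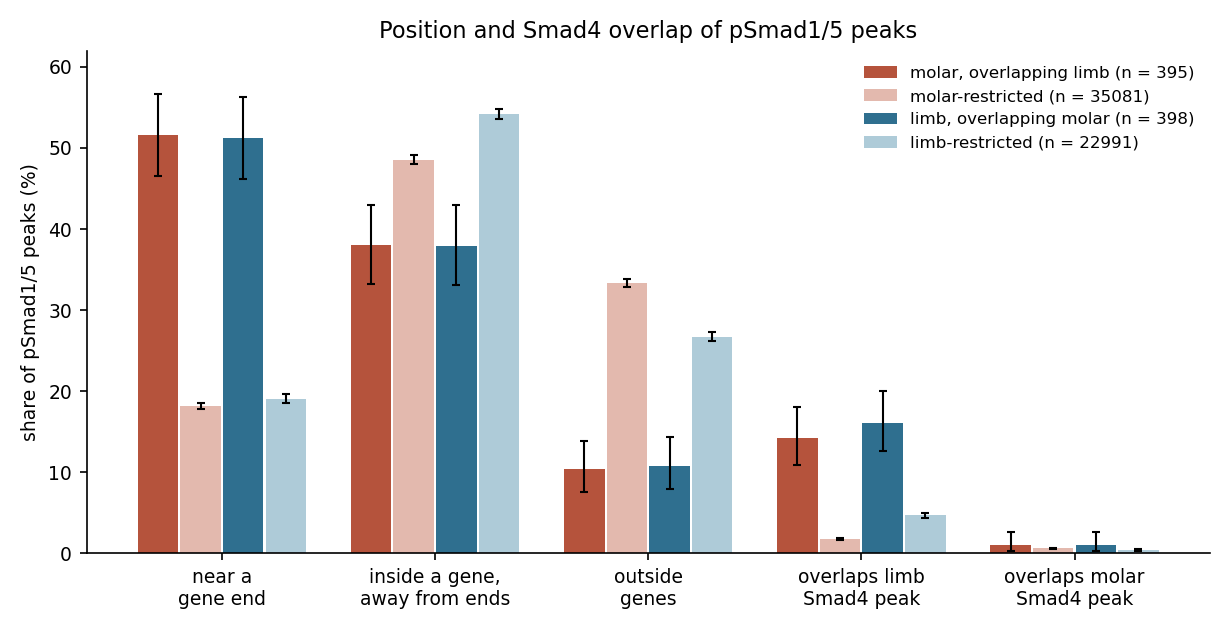
Share of pSmad1/5 peaks (y axis, percent) by position and by overlap with a Smad4 peak, for overlapping and restricted peaks of each tissue, with exact 95% binomial intervals over peaks as bars. Overlapping peaks stand at 51.6% and 51.3% near gene ends, against 18.1% and 19.1% of restricted peaks.

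Starts could be separated from far ends by the strand in the RefSeq promoter table, which holds no start on chromosome 18. Within 1 kb of a start lay 45.4% of overlapping molar peaks (176 of 388) and 12.7% of restricted ones, and 44.8% (175 of 391) and 12.5% in limb. Within 100 bp of a start the shares were 13.4% and 3.13% in molar and 14.6% and 3.06% in limb. Far ends of protein-coding genes with no start within 1 kb held 2.32% (1.07 to 4.36%) of overlapping molar peaks against 1.80% of restricted ones, and 2.05% (0.887 to 3.99%) against 2.53% in limb. The difference at gene ends thus lay at starts, and at far ends it was within counting error. Over 50 kb from any start lay 12.1% of overlapping and 30.7% of restricted molar peaks, and 12.3% and 23.3% in limb.

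The position relative to the start was alike in overlapping and restricted peaks. Of the overlapping molar peaks within 1 kb of a start, 35.2% lay upstream (28.2 to 42.8%), against 35.8% of the restricted ones (34.3 to 37.2%). In limb these shares were 33.1% (26.2 to 40.6%) and 38.0% (36.2 to 39.9%). The median summit lay downstream of the start, by 95 and 109 bp in molar and by 96 and 92 bp in limb.

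**Figure D3:**
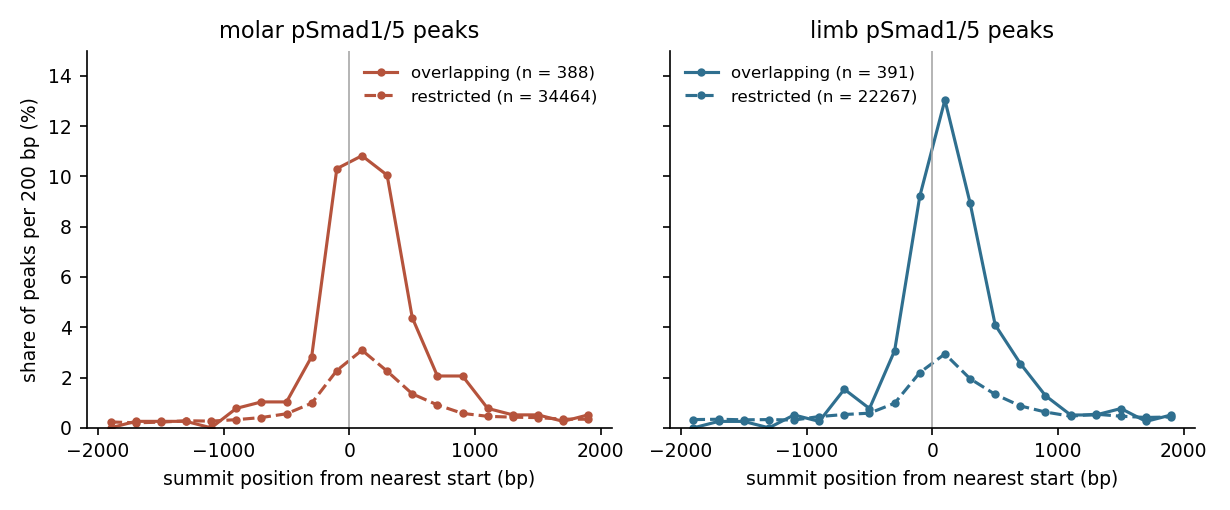
Share of peaks per 200 bp (y axis, percent) by position of the summit from the nearest annotated start (x axis, bp, upstream negative), for overlapping (solid) and restricted (dashed) peaks. Both curves peak in the 200 bp after the start, at 10.8% of overlapping and 3.09% of restricted molar peaks and at 13.0% and 2.94% in limb.

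Width and score moved with overlap. Overlapping molar peaks had a median width of 74 bp and a median score of 3.25, against 63 bp and 2.99 for restricted ones. In limb the medians were 71.5 bp and 3.58 against 56 bp and 3.44. A wider peak meets a 1 bp rule more easily, so the classes were also compared among peaks up to 80 bp wide, a choice made after seeing the data. There, gene ends held 44.98% of overlapping molar peaks (38.4 to 51.7%) and 16.8% of restricted ones (16.4 to 17.3%), and 45.7% (39.1 to 52.3%) and 16.8% (16.3 to 17.3%) in limb. With a score of at least 4 in both lists the molar shares were 75% (55.1 to 89.3%, 28 peaks) and 29.1% (27.6 to 30.6%).

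The overlap rule did not use the Smad4 lists, but limb Smad4 and limb pSmad1/5 come from the same tissue. Overlapping molar peaks lie at a limb pSmad1/5 peak by the rule, so their limb Smad4 share is not independent of it. Over all peaks, limb Smad4 overlapped 4.85% of limb and 1.92% of molar pSmad1/5 peaks. A limb Smad4 peak overlapped 14.2% of the molar peaks shared with limb (10.9 to 18.0%, 56 of 395) and 1.78% of molar-restricted peaks (1.65 to 1.93%). For limb peaks these shares were 16.1% (12.6 to 20.1%, 64 of 398) and 4.65% (4.39 to 4.93%). The difference held at starts and away from them, with the intervals apart in each case. Within 1 kb of a start limb Smad4 was found at 22.7% of overlapping and 6.65% of restricted molar peaks, and farther away at 6.60% and 1.05%. In limb the same shares were 25.7% and 12.3% near starts and 7.41% and 3.58% farther away.

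Molar Smad4 was rare at the same sites. It overlapped 4 of 395 overlapping molar peaks (1.01%, 0.277 to 2.57%) and 0.584% of restricted ones, and 4 of 398 overlapping limb peaks (1.01%, 0.274 to 2.55%) and 0.405% of restricted ones. These intervals include the restricted shares. Near starts it was found at 0 of 176 molar and 0 of 175 limb overlapping peaks, for which the exact intervals reach 2.07% and 2.09%. Of the 402 pairs, 74 had a limb Smad4 peak at either member, 5 a molar Smad4 peak and 0 both. The 5 were nearest to Bdkrb2 (a bradykinin receptor), Ndrg1, Ate1, Kif3c (a kinesin motor) and Uggt2, chosen after their values were seen.

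The next comparison counts genes rather than peaks, and asks which genes have a summit inside them or within 10 kb in a single tissue. Of the 21887 protein-coding genes, 7549 (34.5%) had one in both tissues, 4304 (19.7%) in molar only, 2925 (13.4%) in limb only and 7109 (32.5%) in neither. Genes with both were longer, with a median of 30783 bp, against 20934.5 bp for molar only, 16063 bp for limb only and 7329 bp for neither. Sharing a gene seldom meant sharing a site. Of the 7549 genes, 6.81% had an overlapping site, and their closest molar and limb summits were a median of 3068 bp apart, within 1 kb in 32.2%. Within 1 kb of a gene end, 1106 genes (5.05%) had a summit in both tissues, 3434 (15.7%) in molar only and 2280 (10.4%) in limb only.

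The surplus of molar-only over limb-only genes, 1379, changed sign with the score limits. On chromosomes where the lowest molar score is at least 3 it was -284, and with a score of at least 3 in both lists it was -664. A stricter class was therefore kept beside it, with a peak of score 4 or more in one tissue and no listed peak in the other. It held 860 molar genes (3.93%) and 943 limb genes (4.31%).

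Genes of the lists had summits in both tissues more often than protein-coding genes as a whole. The lists were chosen with earlier results of these data known, so this difference is not independent of them. Of the 399, 229 had both (57.4%), 94 molar only (23.6%) and 37 limb only (9.27%). Among genes 10 to 30 kb long, both tissues were marked in 62 of 103 list genes (60.2%) and 32.5% of all 6456. Over all lengths, a score of at least 3 in both lists gave 48.6% of list genes and 28.9% of protein-coding genes. With a score of at least 4 these shares were 5.76% and 4.86%. In the strict class stood 18 of the 399 list genes for molar and 14 for limb, near the 3.93% and 4.31% of all protein-coding genes. All 19 lists had more molar-only than limb-only genes among the listed peaks, and most of these splits moved with the score limits. With a score of at least 3 in both lists 8 lists had more molar-only genes, 8 more limb-only genes and 3 equal numbers. With a score of at least 4 these were 2, 13 and 4, and on chromosomes whose lowest molar score is at least 3 they were 12, 4 and 3. The BMP receptors and Smads and the Hox genes were the 2 lists with more molar-only genes in each gene-level setting that was run. Of the 229, 84 (36.7%) had molar and limb summits within 1 kb of each other, near the 32.2% of all 7549 genes with both. Within 200 bp lay those of 31 list genes, and for this distance no share over all genes was computed. Examples of close but separate summits, chosen after their values were seen, are Erg (46 bp), Lhx9 (111 bp), Gli2 (121 bp), Shox2 (155 bp) and Tbx3 (162 bp).

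**Figure D4:**
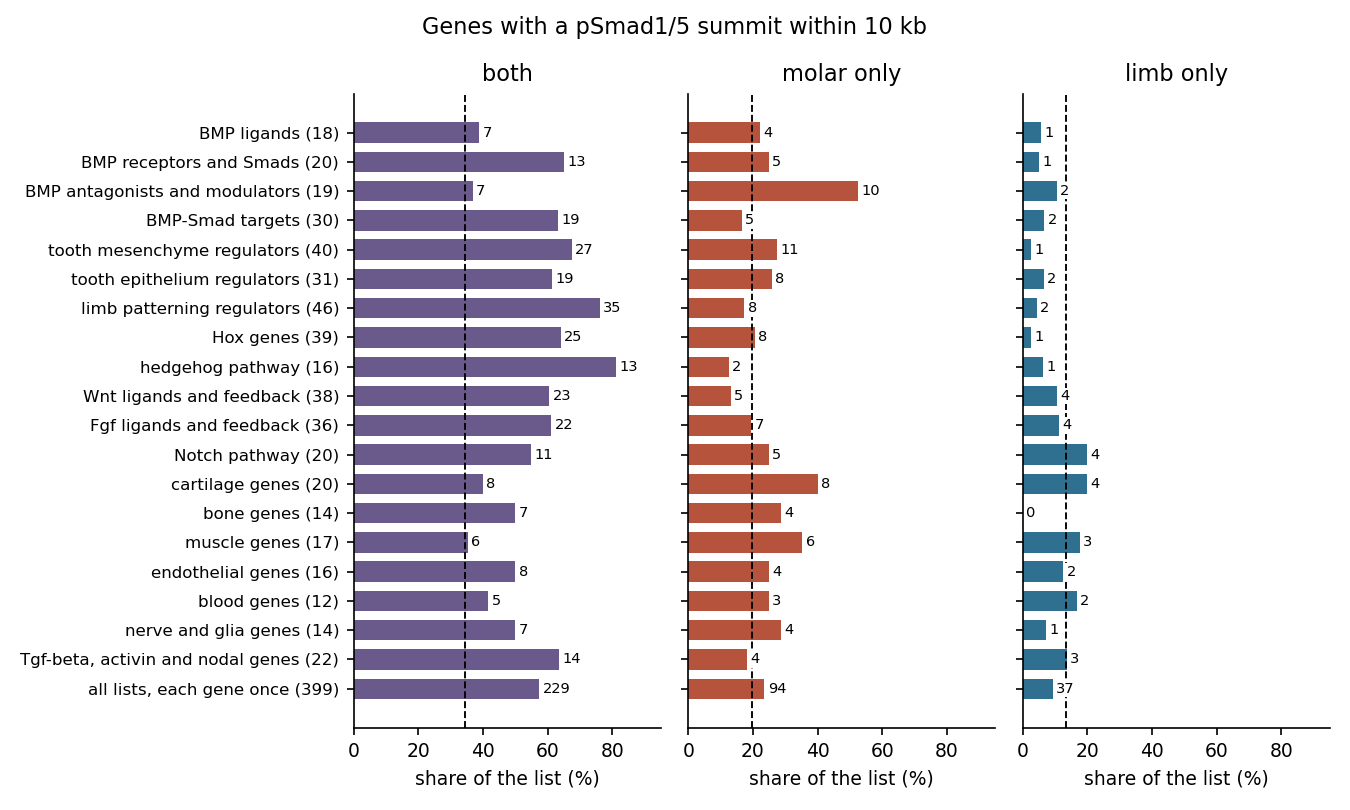
Share of each gene list (x axis, percent; list size in brackets, number of genes beside each bar) with a pSmad1/5 summit within 10 kb in both tissues, in molar only and in limb only. Dashed lines mark all protein-coding genes, at 34.5%, 19.7% and 13.4%, and the limb patterning list stands at 35 of 46 genes for both tissues.

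BMP ligand genes were marked about as often as other genes, with 7 of 18 in both tissues, 4 in molar only, 1 in limb only and 6 in neither. The background for this and the lists below is 34.5% of all protein-coding genes in both, 19.7% in molar only and 13.4% in limb only. Bmp4, the main mesenchymal BMP of the tooth bud, had 3 peaks in each tissue, with top scores of 4.13 in molar and 3.77 in limb and the closest summits 978 bp apart. The nearest limb summit lay 87 bp from an end of the gene and the nearest molar summit 2489 bp. Bmp7, an epithelial and mesenchymal BMP, had 2 molar peaks (top score 3.28) and 7 limb peaks (4.31), of which the nearest lay 1186 and 124 bp from an end. Bmp2 had no peak in either tissue. With a peak in molar only stood Gdf11 (3.71), Gdf2 (3.55), Bmp3 (3.42) and Gdf3 (2.59), and in limb only Bmp8b (3.95).

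BMP receptors and Smads had 13 of 20 genes marked in both tissues (65%), 5 in molar only (25%) and 1 in limb only (5%). Over all protein-coding genes these shares were 34.5%, 19.7% and 13.4%. The list's median gene length was 53621 bp, against 17169 bp over all genes, and the part of length was not tested. Bmpr1a, the main type I receptor of dental mesenchyme and limb bud, had 3 molar peaks within 1 kb of its ends, the nearest at 16 bp, with a top score of 4.66, and no limb peak. Bambi, a decoy receptor, also had molar peaks only (score 4.15), as did Rgmb, a co-receptor (3.74), Smad4 (3.55) and the type II receptor Bmpr2 (3.06). Smurf2, a ubiquitin ligase of the pathway, was the limb-only member (3.30). The inhibitory Smads were marked in both tissues. Smad7 had scores of 5.00 in molar and 3.77 in limb, with summits 994 bp apart, and Smad6 had 4.38 and 4.52, 29718 bp apart.

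Among BMP antagonists and modulators the split leaned to molar, with 10 of 19 genes in molar only, 2 in limb only and 7 in both. Over all protein-coding genes the molar-only share was 19.7%. With a score of at least 3 in both lists the split was 8 and 3, and with at least 4 it was 3 and 3. The 10 included Grem1, a secreted antagonist of the limb's signalling loop, with 2 peaks within 1 kb of an end (nearest 81 bp, score 3.44). Nog, another antagonist (score 3.47), Tll1, a protease that cleaves chordin (4.45), Fstl3 (3.61) and Tob1 (3.51) were further members. Limb-only members were Crim1 (3.89) and Bmper (3.30). Only Tll1 belonged to the strict class, and 4 others of the 10, among them Fst, Sostdc1 and Fstl1 (named after their values were seen), lie on chromosomes with the lower molar limit.

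The BMP-Smad target list had 19 of 30 genes in both tissues, 5 in molar only, 2 in limb only and 4 in neither. The Id genes, inhibitors of differentiation and classical targets, differed among themselves. Id1 had 1 peak in each tissue (4.05 in molar, 3.20 in limb), 11235 bp apart, and Id2 had 3.52 and 4.25, with summits 768 bp apart and the limb summit 302 bp from an end. Id4 had 4 molar peaks (top score 4.56) and no limb peak, and Id3 had no peak in either tissue, although 7 limb Smad4 peaks lay within 10 kb. The Notch-related repressor Hey1 had the highest score of the molar-only targets, 5.12, 325 bp from an end, and Hey2 had 3.08 at 8 bp. Msx2, a homeobox gene of tooth and limb, had a single molar peak of low score (2.79). Limb-only targets were Sox9, the master regulator of cartilage (2 peaks, top score 4.10, 2573 bp from an end), and Zeb2 (3.52).

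Tooth mesenchyme regulators had 27 of 40 genes in both tissues, 11 in molar only and 1, Gli1, in limb only (score 3.66). The single-tissue split became 7 and 7 with a score of at least 3 in both lists and 5 and 9 with at least 4. Msx1 had 4 molar peaks, 3 of them within 1 kb of an end, with a top score of 3.36, and 3 limb peaks at least 3020 bp from an end, with a top score of 4.44. Barx1, a homeobox gene of molar mesenchyme, had scores of 3.27 in molar and 3.50 in limb, with summits 935 bp apart. Pax9, a paired-box gene needed for the tooth bud, had 2 molar peaks of low score (top 2.61) and no limb peak. Runx2, the osteoblast regulator, had 5 molar peaks (top 3.91) and 12 limb peaks (top 5.12), with the closest summits 137 bp apart. The highest scores of molar-only members were at Nr2f2 (4.05), Cyp26c1 (3.65), Wnt5a (3.43), Bmp3 (3.42) and Alx4 (3.18), and Nr2f2 alone was in the strict class.

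Tooth epithelium regulators had 19 of 31 genes in both tissues, 8 in molar only and 2 in limb only. The split was 5 and 6 with a score of at least 3 in both lists, 2 and 7 with at least 4, and 4 and 4 with equal numbers of peaks per chromosome. Trp63, the master regulator of stratified epithelium, had 4 molar peaks (top 4.03) and no limb peak. Krt14 (3.18), Wnt6 (3.17) and Isl1 (3.07) were further molar-only members. The limb-only members were Foxi3 (4.56) and Fgf20, a growth factor (3.99, 307 bp from an end). Both are genes of ectodermal appendages, and neither had a molar peak within 10 kb.

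Limb patterning regulators had the second highest share of genes marked in both tissues, 35 of 46, after the hedgehog list with 13 of 16. Median gene length was 16242.5 bp in the limb list, 45501.5 bp in the hedgehog list and 17169 bp over all protein-coding genes. Tbx4, the hindlimb T-box gene, had top scores of 4.47 in molar and 3.05 in limb. Tbx5, its forelimb counterpart, had a single limb peak of score 3.01, near the lower limit of the list, and no molar peak. Pitx1, a homeobox gene of hindlimb and of oral ectoderm, had 6 molar peaks (top 4.13) and 1 limb peak (3.29). Gli3, the hedgehog repressor of digit number, had 2.80 in molar and 4.67 in limb, with the limb summit 560 bp from an end. Molar-only members were Hand1 (4.50), En1 (3.39), Hand2 (3.12) and 5 others, and limb-only members were Meis1 (3.52) and Tbx5. This split of 8 and 2 turned to 5 and 6 with a score of at least 3 in both lists, and to 6 and 14 with at least 4.

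Hox genes, which set position along the limb and are largely silent in the first pharyngeal arch from which teeth arise, had 25 of 39 members in both tissues. A further 8 had molar peaks only and 1, Hoxc12, limb peaks only (3.79). Hoxa13 had 4 molar peaks (top 4.27, nearest 356 bp from an end) and no limb peak, and Hoxd13 had 3 molar peaks (top 4.38) and 1 limb peak (3.08). Hoxa5 and Hoxa6 shared their top molar peak (4.19). Within the clusters neighbouring genes share peaks, so these counts exceed the number of sites. Hox expression was not measured here.

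Other signalling lists also had most members marked in both tissues, at 23 of 38 for Wnt genes, 22 of 36 for Fgf genes, 11 of 20 for the Notch pathway and 14 of 22 for TGF-beta, activin and nodal genes. Wnt genes had a median length of 31501.5 bp, against 17169 bp over all protein-coding genes. The strongest single-tissue member of any list was Jag1, a Notch ligand, with 5 limb peaks, a top score of 6.94 and 3 peaks within 1 kb of an end, and no molar peak. Dll1, another Notch ligand, had a limb peak of 4.37. In the Wnt list the secreted inhibitors Sfrp1 (4.86) and Notum (4.13) were limb only, and Sfrp4 (3.48) was molar only. In the Fgf list Fgf5 (4.73) and the feedback inhibitor Spry4 (4.57) were limb only, and Fgf14 (4.17) was molar only. In the TGF-beta list the type I receptor Tgfbr1 (5.12) and Tgif1 (4.60) were limb only, and the corepressor Skil (4.99) and the receptor Tgfbr2 (3.90) were molar only. In the hedgehog list the co-receptor Cdon (4.47) was molar only and Gli1 was limb only.

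Genes of other cell types that the dissected tissue could hold were marked as well. Over all protein-coding genes 34.5% were marked in both tissues, 19.7% in molar only and 13.4% in limb only. The share in both was near this for muscle (35.3%), cartilage (40%) and blood genes (41.7%). It was 50% each for bone, endothelial, and nerve and glia genes. Endothelial genes had a median length of 42976.5 bp, against 17169 bp over all genes. Cartilage genes had 8 of 20 members in both tissues, 8 in molar only and 4 in limb only, which turned to 5 and 6 with a score of at least 3 in both lists. The chondrogenic factor Nkx3-2 (4.95), Sox9 and Hapln1 (3.92) were limb only, whereas Sox6, a partner of Sox9 (4.62), was molar only. Bone genes had 7 of 14 in both, 4 in molar only and 0 in limb only, with Alpl at 4.88. Muscle genes had 6 of 17 in both, 6 in molar only and 3 in limb only, with the embryonic myosin Myh3 (4.23) in limb. The muscle split was 3 and 4 with a score of at least 3 in both lists, and 1 and 2 of 9 genes on chromosomes whose lowest molar score is at least 3. Endothelial genes had 8 of 16, 4 and 2, with Fli1 (4.85) in molar. Blood genes had 5 of 12, 3 and 2, with Tal1 (4.35) in molar, and nerve and glia genes 7 of 14, 4 and 1, with Th (4.77) in limb. Outside cartilage, the gene named for each of these lists is its only single-tissue member with a score of at least 4. For the muscle list and the nerve and glia list it is a limb-only gene, although most single-tissue members there were molar only. The part of such cells in the tissue differences was not tested.

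The highest-scoring restricted peaks within 10 kb of a protein-coding gene lay at other loci. In molar 2 lay inside Emp2, a tetraspan membrane protein (13.8 and 11.7), 3 inside 1600014C10Rik (9.49, 8.30 and 7.98) and 1 at 1862 bp from Cwc22, a splicing factor (9.20). The others lay inside Baiap2l2 (7.70), Glis3, a zinc finger factor (7.63), Rabac1 (7.53) and Extl1 (7.48). In limb the highest lay inside Cdk8, a Mediator kinase (28.8), Smo, the hedgehog signal transducer (12.8), and Cwc22 (10.4). They were followed by peaks inside or beside Cbx7, Copg2, Eps8, Dennd1a, Ccl28, Serinc2 and Trp73 (8.67 to 7.70). Restricted by the 1 bp rule did not always mean distant, since a molar summit lay 78 bp from the limb summit at Serinc2. At the other 19 peaks the nearest summit of the other tissue was 2244 to 59525 bp away. The caller's p-value did not follow the score, at 0.00041 for Smo and 1.5e-10 for Serinc2.

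Base composition was compared over 32851 RefSeq promoters of 300 bases, from 250 before to 50 after a start. Of these, 113 (0.344%) held a summit of both tissues, 1352 (4.12%) of molar only and 834 (2.54%) of limb only, and 60 of the 113 held an overlapping pair. Promoters with a summit were richer in G+C than those without. The median G+C was 68.7% with both summits, 66.7% with molar only, 65.0% with limb only and 52.0% with neither. The observed to expected CpG ratio had medians of 0.876, 0.849, 0.780 and 0.351 in the same order.

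GC-rich and Smad-box motifs were counted on both strands as a description. GGCGCC, a GC-rich BMP-Smad element that reads alike on both strands, was present in 35.4% of promoters with both summits (26.6 to 44.95%), 30.4% with molar only (28.0 to 32.9%), 26.5% with limb only (23.5 to 29.6%) and 10.6% with neither (10.2 to 10.9%). All promoters together held it in 11.9%. Among promoters of 60 to 75% G+C the shares were 34.9%, 32.0%, 29.5% and 27.2%, a smaller spread than over all promoters. Within that range the molar-only interval (28.9 to 35.2%) lay above that of unmarked promoters (26.1 to 28.2%). The intervals for both summits and for limb only did not. The range did not equalize composition, with a median G+C of 67.3% for molar only and 65.3% for unmarked promoters. Their median CpG ratios there were 0.853 and 0.789. The next shares are in the order both, molar only, limb only and neither. GGAGCC, whose reverse complement was counted too, was found in 49.6%, 50%, 46.4% and 29.5% of all promoters. Within the G+C range its shares were 51.8%, 52.1%, 50.4% and 51.4%. CAGAC was found in 54.9%, 43.6%, 49.8% and 49.8% of all promoters. The palindromic Smad box, GTCT followed directly by AGAC, stood in 0, 3, 3 and 64 promoters. These were 0%, 0.222%, 0.360% and 0.209% of their groups, near the 0.213% of all promoters.

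**Figure D5:**
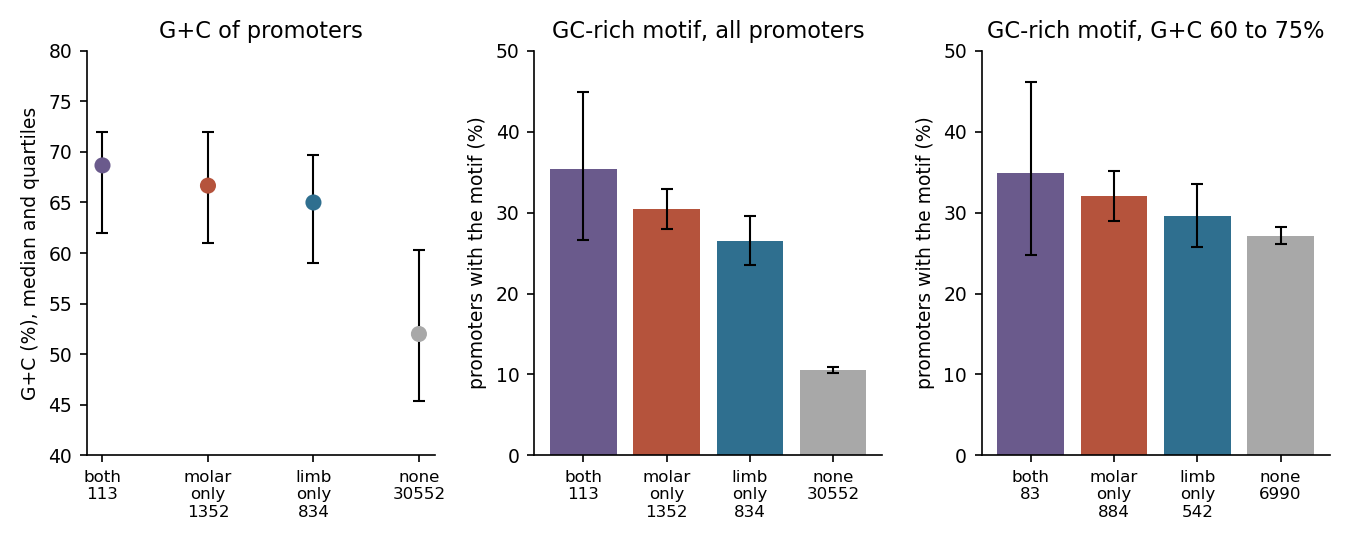
Left, median G+C of promoters (y axis, percent) with quartiles as bars, by which tissue has a summit in them, with the number of promoters under each group. Middle and right, share of promoters (y axis, percent) with the motif GGCGCC in all promoters and in those of 60 to 75% G+C, with exact 95% binomial intervals, where the value for promoters without a summit is 10.6% and 27.2%.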

How the data were processed

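The peak lists of pSmad1/5 in molar and limb, and of Smad4 in the same tissues, come from 1 library each. Per the labels, the authors used BCP_TF to call peaks and deposited position, length, enrichment score, p-value and summit of each peak. The deposited score is used to rank and filter, and the deposited p-value, at most 0.000998 in these lists, was not used for any test. The submitters' processing notes name the build mm10 and the tools bcl2fastq, Bowtie2, SAMtools, bedtools and deepTools. Use of the inputs in the calls, read numbers and the handling of duplicate reads or problem regions were not given in the sources used here.

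Gene positions, promoters and strands came from RefSeq on GRCm38.p6, whose chromosomes carry mm10 coordinates. The promoter table gave strand for 17492 of 21887 protein-coding genes, held a promoter for 270 of the 399 list genes and had none on chromosome 18. No genome sequence was used. A summit within 1 kb of an annotated gene end put a peak near a gene end, and other peaks were inside a gene or outside genes, without separating exons, introns and untranslated regions. A gene counted as marked when a summit lay inside it or within 10 kb. Intervals are Clopper-Pearson.

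The members, the 19 gene lists and the alternatives were chosen with earlier results of these data known. Named genes were those nearest to the 15 overlapping pairs with the highest lower score, list genes with an overlapping site, those nearest to the 10 highest-scoring restricted peaks per tissue within 10 kb of a protein-coding gene, up to 6 single-tissue members per list by score, and 25 fixed genes. Other names, the examples of close summits and the 80 bp width limit were picked with the values in view. Alternatives were other score limits, equal numbers of peaks per chromosome, chromosomes with equal limits, other overlap rules and other distances. Overlap and counting code was tested on simulated data. Analyses ran in Python 3.11.15 with scipy 1.17.1, numpy 2.4.6 and pandas 2.3.3, and figures were drawn in matplotlib 3.10.9. Results for some list genes are not reported here, and counts over lists include them.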

Additional observations from a re-analysis of the deposited data

How the results depend on the processing

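Gene-end shares were recomputed under each peak-level alternative but that of a peak within 1 kb, and limb Smad4 shares under these but the other gene-end definitions. In each of those the share near gene ends and the share at limb Smad4 were larger for overlapping than for restricted peaks in both tissues, although at a score of at least 4 the Smad4 share of overlapping limb peaks (13.8%, 4 of 29) had an interval that includes that of restricted ones. The surplus of molar-only over limb-only genes was not stable. It was 1379 protein-coding and 57 list genes. With a score of at least 3 in both lists it was -664 and 7, with at least 4 it was -1126 and -22, on chromosomes whose lowest molar score is at least 3 it was -284 and 13, and with equal numbers of highest-scoring peaks per chromosome it was 157 and 36. Of the 4304 molar-only and 2925 limb-only genes, 3215 and 2587 kept their class with equal numbers.

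A score of at least 3 gave an overlap of 1.47% of molar and 1.20% of limb peaks, 23.8% of molar-restricted peaks near gene ends, 2.37% of them at limb Smad4, and 16.8% of list genes in limb only. A score of at least 4 gave overlaps of 0.793% and 0.608%. Near gene ends lay 75% of overlapping and 29.1% of restricted molar peaks and 75.9% and 28.7% in limb, and limb Smad4 was at 2.82% of molar-restricted and 8.46% of limb-restricted peaks. Genes marked in both tissues fell to 4.86% (list genes 5.76%), molar-only genes were 9.05%, and limb-only list genes 21.6%. Equal numbers gave overlaps of 1.28% and 1.29%, restricted peaks near gene ends of 22.5% and 19.9%, and 2.20% of molar-restricted peaks at limb Smad4. The chromosomes with equal limits gave 1.44% and 1.20%, 24.3% and 19.6%, and 2.42%.

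Requiring 50% of the shorter peak gave overlaps of 0.744% and 1.13%, summits within 200 bp gave 2.51% and 3.80% (with 17.7% and 18.4% of restricted peaks near gene ends), and a peak within 1 kb of the summit 7.29% and 10.6%. With gene ends at 500 bp the overlapping and restricted shares were 38.2% and 12.1% in molar and 38.2% and 12.2% in limb. At 2 kb they were 62.03% and 25.4%, and 62.6% and 27.9%. With protein-coding genes only they were 45.8% and 14.0%, and 45.7% and 14.3%. Among peaks up to 80 bp wide, chosen after seeing the data, they were 44.98% and 16.8%, and 45.7% and 16.8%, and limb Smad4 was at 9.17% and 1.40% of molar and 12.6% and 3.46% of limb peaks.

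Within 1 kb of gene ends 5.05% of genes and 8.77% of list genes were marked in both tissues, and 16.0% of list genes in limb only. Within 50 kb 60.1% of genes were marked in both and 7.92% in limb only, and list genes were 11.5% in molar only and 5.01% in limb only, a surplus of 26. The cause of these changes was not tested. No paired analysis was possible because each tissue and antibody has 1 library, and for the same reason no library could be left out.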
